A study of Mus musculus with 12 samples.

Results

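In wild-type (WT) mice, the T cell receptor (TCR) chains of thymocytes positive for CD4 alone (CD4SP) were compared with those of thymocytes positive for CD8 alone (CD8SP). The members are the 6 of 12 libraries whose titles name WT, 3 of CD4SP and 3 of CD8SP, and the libraries with replicate numbers 1, 2 and 3 were taken as pairs from mice 1, 2 and 3. Each library gave a table of alpha chain clonotypes (TRA, with some delta chain joins, TRD) and a table of beta chain clonotypes (TRB). The series also holds the same 2 populations of mice that lack Chrna9, a nicotinic acetylcholine receptor subunit, and its title concerns negative selection of thymocytes. Mice are described as 2 male and 1 female pairs, no treatment is named, and neither strain nor age is given in the sources used here. Thymus cells were sorted by their stain for CD4 and CD8 alone, 1000000 CD4SP and 330000 CD8SP cells per library, and RNA was used. The question put to the 6 libraries is which V and J segments, joins and CDR3 sequences differed between CD4SP and CD8SP cells. The 2 sorted populations are called lineages below, and whether every sorted cell had taken its lineage was not tested.

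A TCR chain is made by joining a V to a J segment, with a D segment between them in beta chains, and the joint forms the CDR3 loop that lies over the bound peptide. The CDR1 and CDR2 loops are written in the V segment itself and lie mostly over the helices of the MHC molecule. Thymocytes whose receptor engages MHC class II become CD4SP cells, those whose receptor engages MHC class I become CD8SP cells, and a join that is out of frame or holds a stop codon makes no chain and is not selected.

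The loops of some V segments that differed are shown first, because the charge of these loops is compared below. The letters are the coding strand of the most-read form in the deposited tables, 5′ to 3′, and capitals mark the codons of the charged residues lysine, arginine, aspartate and glutamate. TRBV31 and TRBV5 were higher in CD4SP.
TRBV31 CDR1: gggAAAtcaagccctaac
TRBV31 CDR2: tctattactgttggc
TRBV5 CDR1: ctgggacataatgct
TRBV5 CDR2: tacaatcttAAAcagttg
The next 4 beta segments were lower in CD4SP.
TRBV14 CDR1: tctggacatGATacc
TRBV14 CDR2: tttCGGGATGAGgctgtt
TRBV17 CDR1: atgaatcatGATacc
TRBV17 CDR2: tactatGATAAGattttg
TRBV12-1 CDR1: tctggacatagcaat
TRBV12-1 CDR2: cattatGAAAAGgtgGAG
TRBV29 CDR1: atgagccatGAAaca
TRBV29 CDR2: tcatacGATgttGATagt
Among alpha segments, TRAV4D-4 and TRAV7-2 were the higher ones in CD4SP, TRAV16N the lower one.
TRAV4D-4 CDR1: accaccatgAGGgct
TRAV4D-4 CDR2: ttggcttcaggaaca
TRAV7-2 CDR1: GATCGTaatgttGACtac
TRAV7-2 CDR2: atcttctccaatggtGAA
TRAV16N CDR1: accCGGGACagttcttacttc
TRAV16N CDR2: cagGACtcttacAAAAAGGAAaat

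The libraries held 19847 to 33885 productive TRA reads and 74021 to 134169 productive TRB reads, in 10456 to 14416 TRA and 36741 to 46804 TRB clonotypes. CD4SP libraries were the shallower ones in TRB, with 74021 to 86935 against 92648 to 134169 reads, and overlapped with CD8SP libraries in TRA, with 19847 to 24605 against 23402 to 33885. The tables hold no molecule counts, so intervals and limits cover counting error only. In bulk RNA, fewer cells with a chain and less RNA per cell cannot be told apart. A TCR library has no gene that marks CD4SP or CD8SP cells, so the labels could not be checked against CD4 and CD8. Values below are shares of productive reads in the order of mice 1, 2 and 3, differences are log2 fold changes of CD4SP over CD8SP, and p-values are from edgeR's quasi-likelihood test with the mouse as a block and Benjamini-Hochberg adjustment. A feature was called at an adjusted p under 0.05.

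Beta chain V usage differed between the lineages in nearly every segment. Of 35 TRB segments tested, 85.7% were called, with 18 (51.4%) higher and 12 (34.3%) lower in CD4SP cells, and TRBV31 was the most used V segment of CD4SP cells but not of CD8SP cells. TRBV31 lies downstream of the constant regions and joins by inversion (mm10, chr6:41557693-41558371). It made up 21.1%, 21.5% and 22% of CD4SP reads and 5.65%, 5.42% and 5.73% of CD8SP reads. Every CD4SP library lay far above every CD8SP library, and the means were 21.5% ± 0.455 and 5.60% ± 0.161 (SD, n = 3 mice). Its difference was 1.94 (SE 0.022, edgeR adjusted p = 2.98e-09), or 3.85-fold.

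TRBV5 (chr6:41062359-41062803), the second most used V segment of CD4SP cells, was also higher there. It made up 16.9%, 18.4% and 17.8% of CD4SP reads and 10.8%, 10.1% and 10.8% of CD8SP reads, without overlap (0.75, SE 0.041, edgeR adjusted p = 4.43e-06). TRBV2 was rare but rose by nearly as much as TRBV31, at 0.952%, 0.902% and 0.982% against 0.271%, 0.313% and 0.284% (1.71, SE 0.077, edgeR adjusted p = 1.99e-06). Smaller differences in the same direction were called for TRBV23 (0.77), TRBV3 (0.62), TRBV13-2 (0.51), TRBV19 (0.45), TRBV20 (0.41) and TRBV26 (0.38). TRBV13-2, the main beta partner of the invariant natural killer T (NKT) chain, made up 4.10%, 3.83% and 4.19% of CD4SP reads and 2.79%, 3.07% and 2.64% of CD8SP reads.

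The 8 TRBV segments lower in CD4SP held several of the most used segments of CD8SP cells. TRBV14 (chr6:41135167-41135616) made up 2.26%, 2.17% and 2.33% of CD4SP reads and 7.96%, 7.51% and 7.79% of CD8SP reads, and the groups were far apart. It was lower by 3.44-fold (-1.78, SE 0.028, edgeR adjusted p = 4.77e-09). TRBV17 made up 2.01%, 1.84% and 1.87% against 6.29%, 5.71% and 6.33% (-1.68, edgeR adjusted p = 6.2e-08), again without overlap. TRBV12-1 made up 2.91%, 3.28% and 3.07% against 7.48%, 9.92% and 8.63% (-1.48), and TRBV12-2 1.37%, 1.47% and 1.32% against 3.28%, 4.22% and 3.75% (-1.43). The CD8SP library of mouse 2 was the highest in both TRBV12 segments and in TRBV16, at 2.47% beside 1.94% and 1.78% in mice 1 and 3. TRBV29 made up 5.78%, 5.15% and 5.58% of CD4SP reads and 12%, 10.8% and 11.8% of CD8SP reads (-1.07, SE 0.017). TRBV16 (-0.85), TRBV13-1 (-0.28) and TRBV13-3 (-0.21) were lower as well.

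**Figure D1:**
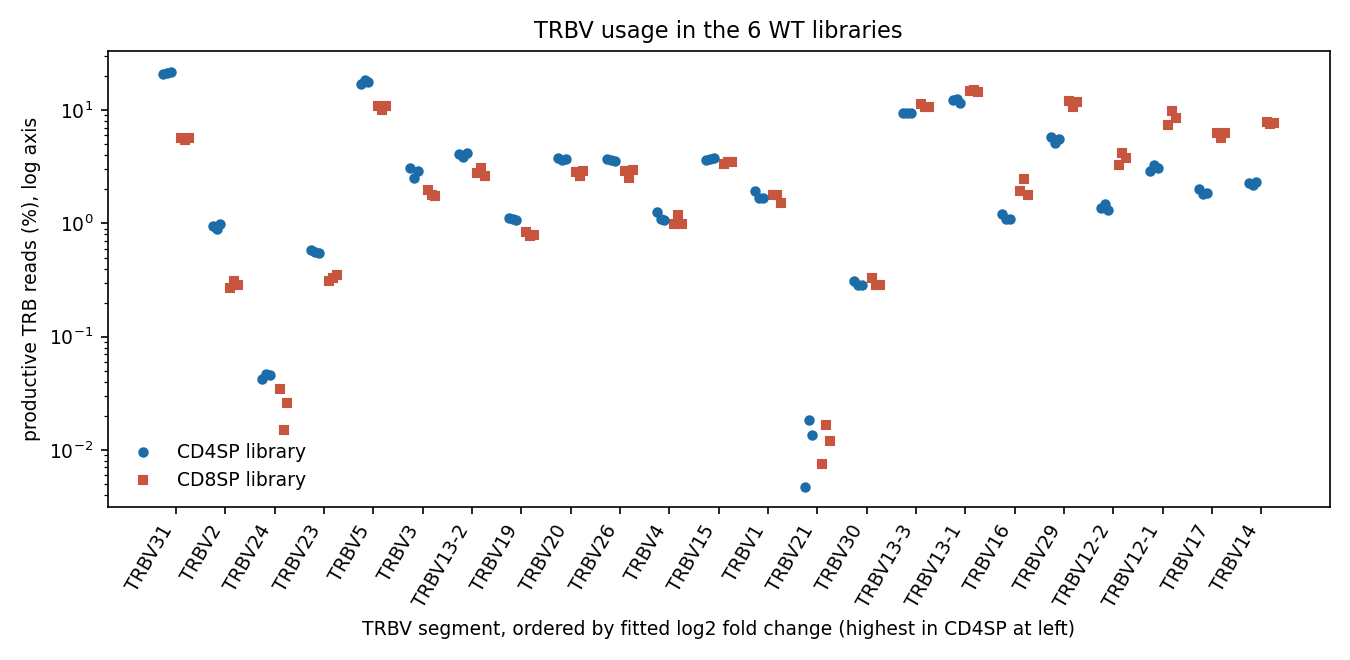
Share of productive TRB reads (%, log axis) of the 23 TRBV segments tested, 1 point per library, circles for CD4SP and squares for CD8SP. At the left TRBV31 lies near 21.5% in CD4SP and near 5.60% in CD8SP, and at the right the 3 CD8SP libraries of TRBV14 lie above its CD4SP libraries.

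Only 4 of the 23 TRBV segments tested were not called. They were TRBV4 (0.12), TRBV1 (0.06), TRBV21 (0.03) and TRBV30 (-0.02), and their CD4SP and CD8SP libraries overlapped. TRBV15, called at 0.10 (edgeR adjusted p = 0.0349), turned to -0.03 with TMM factors and to -0.05 with DESeq2, so its direction depended on the scaling. TRBV24 (0.88, edgeR adjusted p = 0.0208) rested on shares of 0.0452% and 0.0252% and lost its call with TMM factors. With TMM factors the median over all TRB segments moved from 0.12 to -0.02 and the split became 13 higher and 13 lower, and with DESeq2 it was 14 and 13.

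The beta locus runs from TRBV1 at the far end to TRBV30 before the D and J segments, and its segments were summed in blocks. Over all TRB segments, 51.4% were called higher and 34.3% lower in CD4SP. The 5 distal segments TRBV1 to TRBV5 summed to 24.4% ± 0.243 in CD4SP and 15.5% ± 0.360 in CD8SP (SD, n = 3 mice), with 3 higher, 0 lower and a median of 0.62, beside 0.12 over all TRB segments. The 9 middle segments TRBV12-1 to TRBV17 summed to 39.1% ± 0.420 and 60.3% ± 1.52, with 2 higher and 7 lower and a median of -0.85. The 8 proximal segments tested, TRBV19 to TRBV30, summed to 14.9% ± 0.478 and 18.6% ± 1.07, with 5 higher, 1 lower and a median of 0.40. In that last block the sum and the median point in opposite ways, and TRBV29, its most used segment, was at 5.50% in CD4SP and 11.5% in CD8SP. The numbers of higher segments in the distal and proximal blocks lie near the share over all TRB segments.

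Some mouse TRBV segments bind superantigens, proteins of endogenous retroviruses that delete the thymocytes carrying them in strains that express both the protein and a suitable MHC class II molecule. The list of 7 such segments summed to 20.7%, 20.2% and 20.3% of CD4SP reads and to 37.2%, 39.1% and 38.8% of CD8SP reads. Of the 7, TRBV12-1, TRBV12-2, TRBV16, TRBV17 and TRBV29 were lower in CD4SP, where 34.3% of all TRB segments were, while TRBV26 and TRBV15 were higher, with a median of -1.07 beside 0.12 over all TRB segments. TRBV14, which is not on the list, differed more than any of the 7. Whether superantigens were present was not tested, since the strain was not given.

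Beta J segments differed less than V segments. Of 12 TRBJ segments 7 were higher and 4 lower in CD4SP, and each lay between -0.43 and 0.42. TRBJ2-1 made up 10.5%, 10.4% and 10.5% of CD4SP reads and 13.9%, 14.0% and 14.4% of CD8SP reads (-0.43, SE 0.018, edgeR adjusted p = 1.08e-06). TRBJ2-7, the most used J segment, was lower too, at 22.6%, 22.9% and 22% against 25.7%, 25.5% and 24.9% (-0.17). TRBJ1-1 (-0.22) and TRBJ1-2 (-0.23) were the other 2 lower ones. TRBJ1-3 (0.42), TRBJ1-4 (0.31), TRBJ2-3 (0.31), TRBJ1-6 (0.28) and TRBJ2-4 (0.27) were higher, and TRBJ1-5 was at 0.00. The calls of TRBJ1-6, TRBJ2-5 (0.16) and TRBJ2-2 (0.14) ended with TMM factors and with DESeq2. The sum over the TRBJ2 cluster was 73.6% ± 0.820 in CD4SP and 74.2% ± 0.785 in CD8SP (SD, n = 3).

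Several V differences held across most J partners and others did not. Among 244 TRBV and TRBJ pairs tested, 69.7% were called, 89 (36.5%) higher and 81 (33.2%) lower. TRBV31 was higher with 12 of 12 TRBJ segments, from 1.46 with TRBJ2-1 to 2.39 with TRBJ2-5. TRBV31 joined to TRBJ2-5 made up 2.43%, 2.54% and 2.34% of CD4SP reads and 0.438%, 0.483% and 0.469% of CD8SP reads. TRBV2 was higher with 11 of 11, TRBV5 with 11 of 12 and TRBV3 with 10 of 12 partners tested. TRBV14, TRBV17, TRBV12-1, TRBV12-2 and TRBV29 were lower with 12 of 12, and TRBV16 with 11 of 12. TRBV13-1 was lower with 5 of 12 and TRBV13-3 lower with 4 and higher with 1 of 12. TRBV15 was higher with 5 and lower with 1 of 12. The pair furthest in that direction, TRBV14 with TRBJ1-1, made up 0.137%, 0.1% and 0.119% against 0.615%, 0.612% and 0.657% (-2.41, SE 0.131).

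Alpha chain usage also differed widely, with 70.1% of 117 TRA segments called, 35 (29.9%) higher and 47 (40.2%) lower for CD4SP (37 and 32 with DESeq2). Mouse TRAV segments occur in near-identical copies (with D or N in their names), and 40.7% to 41.7% of CD4SP and 30.4% to 31.2% of CD8SP reads had a second segment with an equal score. Values of single copies are therefore uncertain, and the families summed over copies come first. Of 19 families tested 84.2% were called, 6 higher and 10 lower (6 and 6 with DESeq2).

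TRAV16 was the family most strongly lower in CD4SP. It made up 4.27%, 4.06% and 4.38% of CD4SP reads and 13.2%, 13.9% and 13.4% of CD8SP reads, far apart in all 3 mice (-1.67, SE 0.042, edgeR adjusted p = 1.1e-31). Its main copy TRAV16N (chromosome 14, 53351090 to 53351621) was at 3.52%, 3.45% and 3.71% against 10.5%, 11.5% and 10.9%, or 3.08-fold lower, and TRAV16D-DV11 at -1.90. TRAV3 (-1.17), TRAV2 (-0.97), TRAV12 (-0.82), TRAV1 (-0.76), TRAV8 (-0.66), TRAV19 (-0.51), TRAV13 (-0.39) and TRAV9 (-0.36) were lower too. The calls of TRAV13 (-0.14), TRAV19 (-0.26) and TRAV9 (-0.11) ended with DESeq2, and TRAV9 turned to 0.07 without tied segments. TRAV6, a large family, was called at -0.11 and turned to 0.14 with DESeq2 and 0.22 without tied segments.

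TRAV4 and TRAV14 were higher in CD4SP, as was TRAV11, described with the NKT chain. TRAV4 made up 3.26%, 3.32% and 3.53% of CD4SP reads and 1.47%, 1.38% and 1.44% of CD8SP reads (1.24, SE 0.077, edgeR adjusted p = 6.01e-18). Of its 5 copies tested, TRAV4D-4 (2.25), TRAV4-2 (1.82) and TRAV4-4-DV10 (1.32) were called. TRAV14 made up 13.8%, 13.1% and 13.9% against 8.30%, 8.50% and 8.73% (0.68, SE 0.046). All 7 TRAV14 copies tested were higher, from 0.42 to 1.97, where 29.9% of all TRA segments were called higher. TRAV21, a single segment near the J segments, was higher at 0.73, and TRAV10 was at 0.11, which lost its call with TMM factors (0.08). Without mouse 2, 10 families were called, 4 higher and 6 lower.

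TRAV7, the largest family, was nearly even as a whole and split between its copies. The family made up 36.0%, 37.7% and 36.3% of CD4SP reads and 34.2%, 32.5% and 32.7% of CD8SP reads (0.15), and this call ended with TMM factors (0.11). TRAV7-2 (chromosome 14, 53390633 to 53391136), the most used TRA segment of CD4SP, made up 16.2%, 16.9% and 17% against 8.79%, 8.87% and 9.24%, or 1.86-fold more (0.90, SE 0.048, edgeR adjusted p = 8.25e-47). TRAV7-5 was lower (-0.26), with the value at -0.02 and no call once tied segments were left out. Of 9 TRAV7 copies tested 4 were higher and 4 lower, and of 13 TRAV6 copies 5 were higher and 6 lower.

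**Figure D2:**
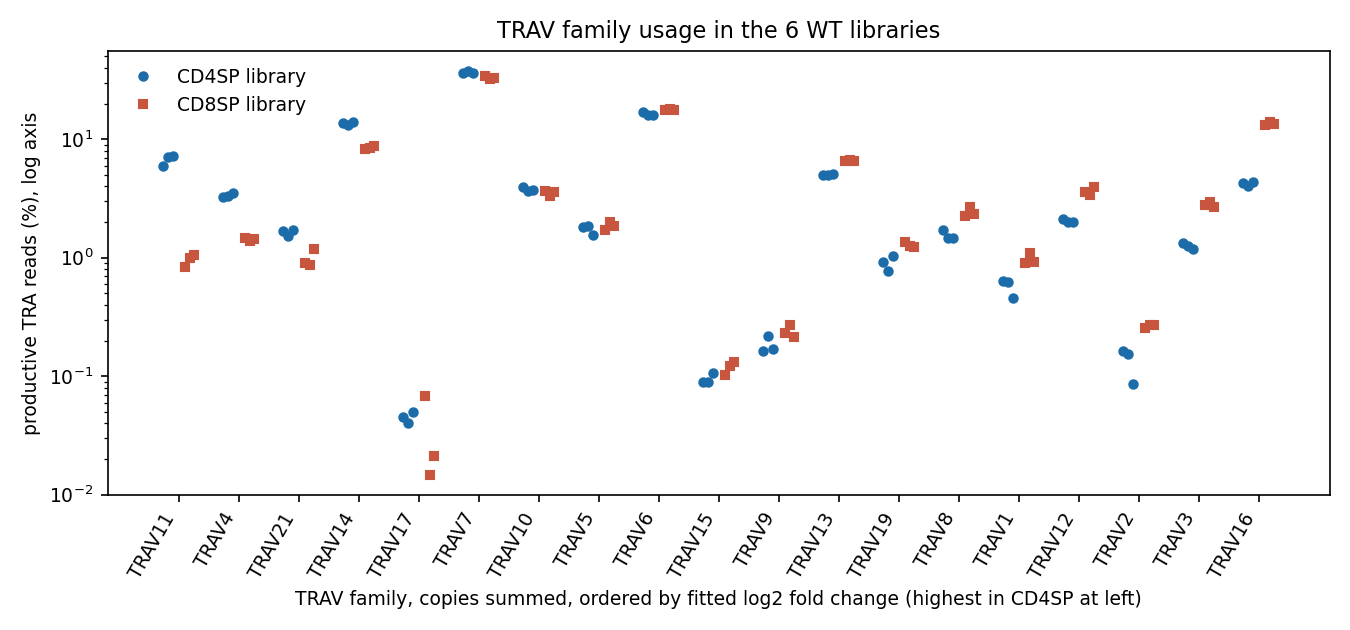
Share of productive TRA reads (%, log axis) of the 19 TRAV families tested, copies summed, 1 point per library, circles for CD4SP and squares for CD8SP. TRAV11 and TRAV4 at the left lie higher in all 3 CD4SP libraries, and TRAV16 at the right lies at 13.2% to 13.9% in CD8SP and at 4.06% to 4.38% in CD4SP.

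TRAV11 and TRAJ18 form the invariant chain of NKT cells, which see lipids on CD1d, and reads of that chain lay almost wholly in CD4SP. TRAV11 made up 5.96%, 7.06% and 7.22% of CD4SP reads and 0.795%, 0.971% and 1.05% of CD8SP reads (2.85), and TRAJ18 was at 2.16. Joins of both with a CDR3 of 15 residues gave 1290, 1552 and 1296 reads in CD4SP and 23, 18 and 20 in CD8SP, or 6.03% ± 0.677 and 0.0708% ± 0.0241 (SD, n = 3). They were 87.9% to 89.8% of the TRAV11 reads of CD4SP and 5.29% to 11.7% of those of CD8SP. Without that chain TRAV11 was at -0.17 (edgeR adjusted p = 0.355), and with each clonotype counted once it was at -0.01, while TRAJ18 was at 0.32 and 0.35. Joins of TRAV1 and TRAJ33 with 12 residues, the chain of mucosal-associated invariant T (MAIT) cells, gave 6, 7 and 4 reads in CD4SP and 1, 10 and 0 in CD8SP, too few to compare. TRD joins made up 1.05%, 1.04% and 1.07% of TRA and TRD reads in CD4SP and 1.20%, 0.858% and 0.983% in CD8SP, with overlap. Without the invariant chain 39 TRA segments were called higher and 40 lower, with a median of -0.03 in place of -0.11. Of the families 5 were then higher and 8 lower. TRA values below include the invariant chain unless stated otherwise.

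Alpha J segments were called in both directions along the locus. Of 43 TRAJ segments tested 14 were higher and 16 lower in CD4SP. TRAJ31 made up 6.90%, 7.08% and 6.69% of CD4SP reads and 4.59%, 4.61% and 4.71% of CD8SP reads (0.57), and TRAJ37 was at 0.67. TRAJ45 was the J segment furthest down, at 0.718%, 0.581% and 0.660% against 1.72%, 1.77% and 1.96% (-1.48, SE 0.132, edgeR adjusted p = 1.64e-22). TRAJ47 (-1.04), TRAJ30 (-0.93) and TRAJ26 (-0.80) were lower as well. Early rounds of alpha rearrangement use the 5′ J segments and later rounds the 3′ ones. The 13 5′ segments summed to 14.5% ± 0.674 of CD4SP and 16.2% ± 0.417 of CD8SP reads, with 4 higher, 4 lower and a median of 0.14. The middle ones, 16 tested, summed to 46.8% ± 0.264 and 51.0% ± 0.145, with 6 higher, 8 lower and a median of -0.39. The 14 3′ segments, which include TRAJ18, summed to 38.6% ± 0.888 and 32.8% ± 0.273, with 4 higher and 4 lower and a median of -0.12, beside -0.11 over all TRA segments. Without the invariant chain the 3′ sums were 34.7% ± 0.780 and 32.7% ± 0.280, the middle ones 49.8% ± 0.156 and 51.0% ± 0.139, and the 5′ ones 15.5% ± 0.682 and 16.2% ± 0.419, where the groups overlapped.

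TRA pairs often followed the direction of their family. Of 365 pairs of a TRAV family and a TRAJ segment, 50.1% were called, 72 (19.7%) higher and 111 (30.4%) lower. Without the invariant chain 85 were higher and 101 lower. TRAV16 was lower with 37 of 41 TRAJ segments tested and had a value below 0 with 41 of 41. TRAV4 was higher with 15 of 24 and lower with 0, TRAV14 higher with 19 of 40 and lower with 2, and TRAV12 lower with 13 of 26. TRAV7 was higher with 16 and lower with 11 of 43. The 2 lower features met in TRAV16 with TRAJ45, at 0.0489%, 0.0284% and 0.0101% of CD4SP and 0.423%, 0.351% and 0.406% of CD8SP reads (-3.70, SE 0.295). TRAV14 with TRAJ31 was at 1.10%, 1.24% and 1.19% against 0.162%, 0.263% and 0.381% (2.15, SE 0.146), and TRAV4 with TRAJ12 at 2.89.

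CDR3 lengths were more concentrated at 13 residues in CD4SP. In TRA, CDR3s of 13 residues made up 32.9%, 32.9% and 33.6% of CD4SP reads and 25.5%, 25.0% and 25.2% of CD8SP reads (0.39, SE 0.018, edgeR adjusted p = 1.83e-16). Of 12 TRA lengths 50% were called, 1 higher and 5 lower (3 and 2 with TMM factors and with DESeq2). Long CDR3s were rarer in CD4SP, with 16 residues at 2.63%, 2.65% and 2.77% against 4.76%, 5.39% and 4.84% (-0.90) and 17 residues at -0.99. The length of 14 residues was at -0.20, which lost its call with TMM factors (-0.02). That of 12 residues was at -0.06, which turned to 0.12 with TMM factors and 0.07 with DESeq2. It also turned positive without the invariant chain. In TRB, 13 residues made up 23.4%, 23.1% and 24.0% against 19.0%, 19.4% and 19.1% (0.29, SE 0.019, edgeR adjusted p = 5.23e-14). Of 14 TRB lengths 57.1% were called, 1 higher and 7 lower (3 and 4 with TMM factors, 3 and 1 with DESeq2), and the lower ones lay on both sides, from 10 residues (-0.48) to 19 (-0.62). Without mouse 2, 4 TRB lengths were called, and without mouse 3, 5, with 13 residues higher in each case.

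The excess of 13-residue CDR3s was present within V segments as well. In families or segments with at least 300 reads in each library, and without the invariant chain, the share of 13 residues was higher in CD4SP in 3 of 3 mice in 9 of 9 TRAV families, by 3.65 to 11.6 percentage points. Within TRAV7 it was 38.2%, 38.1% and 39.7% against 30.7%, 29.8% and 29.7%. In TRB it was higher in 3 of 3 mice in 18 of 18 segments, by 2.16 to 9.89 points, with groups apart in 16 of them. Within TRBV31 it was 26.2%, 24.7% and 26.1% against 19.3%, 17.8% and 19.6%. Families and segments of a library share its cells and are not replicates of each other.

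In the middle of the alpha CDR3, residues differed in charge. Acidic residues, aspartate and glutamate, were lower in CD4SP at all 5 middle positions, that is in 10 of 10 combinations of residue and position, where 37.4% of 91 TRA combinations tested were called lower. Aspartate 1 residue before the middle made up 2.15%, 1.92% and 2.15% of CD4SP reads and 6.16%, 5.73% and 5.80% of CD8SP reads (-1.51, SE 0.055, edgeR adjusted p = 1.04e-19). Glutamate at the middle was at -1.64, and glutamate 1 residue after it, the weakest of the 10 by p, at -0.79 (edgeR adjusted p = 0.0213) with its groups overlapping. Without the invariant chain 9 of the 10 were called, the exception being that last one (-0.70, adjusted p = 0.0638). Basic residues were not uniform, with 3 of 10 combinations higher, 1 lower and 6 not called. Arginine 2 residues before the middle was at 1.32, and at 0.46 without the invariant chain, which carries it there. Lysine at the same position (1.19, and 1.29 without that chain) and arginine 2 residues after the middle (0.63, and 0.72) were higher too. Leucine 2 residues after the middle turned from 1.75 to -0.21 without the invariant chain. Over all TRA combinations 53.8% were called, 15 higher and 34 lower. The split was 30 and 26 with TMM factors, 20 and 22 with DESeq2, and 21 and 31 without the invariant chain.

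An acidic residue anywhere among the 5 middle residues was present in 14.3%, 13.8% and 14.1% of CD4SP reads and in 25.2%, 25.3% and 25.1% of CD8SP reads. A basic one was present in 30.5%, 31.9% and 32.0% against 22%, 22.5% and 23.2%, and without the invariant chain in 27.1% ± 0.353 against 22.5% ± 0.634 (SD, n = 3). The mean net charge of the 5 residues was 0.168, 0.189 and 0.185 in CD4SP and -0.0483, -0.0440 and -0.0339 in CD8SP, positive in every CD4SP and negative in every CD8SP library, and 0.128 against -0.0427 on average without that chain. Within families, and without the invariant chain, the share with an acidic residue was lower in CD4SP in 9 of 9 TRAV families, with groups apart in all 9 and differences from -13.5 to -4.66 points. The share with a basic residue had no common direction, higher in 3 of 3 mice in 7 of the 9 families and lower in 2, with differences from -9.77 to 10.5 points. Within TRAV7 the share with an acidic residue was 11.8%, 11% and 10.9% against 19.9%, 19.8% and 19.3%. Within TRAV16 the acidic share was 21.8%, 22.6% and 21.9% against 35.3%, 33.7% and 34.4%. Leaving out TRAV16, the mean acidic shares were 14.6% ± 0.253 and 23.8% ± 0.114 (SD, n = 3).

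**Figure D3:**
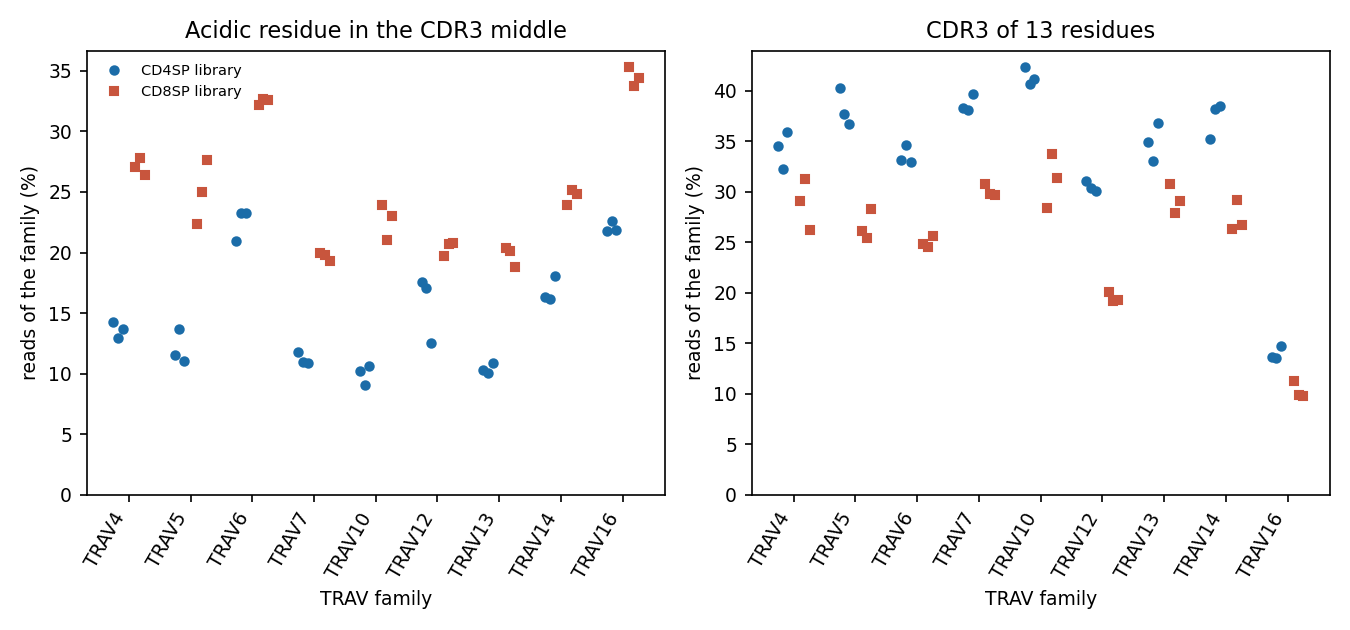
Within each of 9 TRAV families, the share of reads (%) with an acidic residue among the 5 middle CDR3 residues (left) and with a CDR3 of 13 residues (right), 1 point per library, circles for CD4SP and squares for CD8SP, without the invariant NKT chain. Acidic shares are lower and 13-residue shares higher in all 3 CD4SP libraries of every family, for example 10.9% to 11.8% against 19.3% to 19.9% acidic in TRAV7.

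The beta CDR3 showed no such shift in net charge. A basic residue among its 5 middle residues was slightly rarer in CD4SP, without overlap. It was present in 28.9%, 28.7% and 28.5% of CD4SP and in 30.0%, 30.2% and 30.3% of CD8SP reads. Of 10 basic combinations 2 were higher, 4 lower and 4 not called. The mean net charge of the 5 middle residues of the beta CDR3 was -0.374 ± 0.0116 in CD4SP and -0.373 ± 0.0020 in CD8SP (SD, n = 3). Acidic residues were higher in 3, lower in 5 and not called in 2 of 10 combinations. Of 100 TRB combinations 55% were called, 23 higher and 32 lower, 27 and 24 with TMM factors and 24 and 20 with DESeq2, and without mouse 2 35 were called. Glutamine 2 residues before the middle differed most, at 6.67%, 7.02% and 6.62% of CD4SP and 4.2%, 4.24% and 4.27% of CD8SP reads (0.68, SE 0.028, edgeR adjusted p = 1.2e-10). Glutamate (0.39) and histidine (0.35) were higher at the same position, and serine (-0.41) and phenylalanine (-0.52) were lower there.

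The germline loops of the beta V segments, in contrast, differed in net charge. Averaged over reads, the net charge of the TRB CDR1 was -0.00189, 0.0111 and 0.00929 in CD4SP and -0.340, -0.319 and -0.330 in CD8SP. That of CDR2 was -0.0348, -0.0186 and -0.0226 against -0.366, -0.358 and -0.371. Both loops were thus near neutral in CD4SP and negative in CD8SP, with differences of 0.336 and 0.340 charges. Without TRBV31, whose CDR1 holds the lysine codon shown above, the CDR1 difference was 0.141 and the CDR2 difference 0.355. Without TRBV29 the CDR2 difference was 0.242. Summed over both loops, the charge was negative in 6, zero in 1 and positive in 1 of the 8 TRBV segments lower in CD4SP. It was positive in 6, zero in 4 and negative in 1 of the 11 higher ones. Of the 4 segments not called, it was negative in 2, zero in 2 and positive in 0. The aspartate codons of TRBV14 and TRBV17 and the glutamate codons of TRBV12-1 and TRBV29 are in the sequences given first. In TRA the CDR1 was slightly more negative in CD4SP (-0.636 against -0.548, a difference of -0.0879, or -0.0432 without TRAV16N), and the CDR2 values overlapped (difference 0.0485), though without TRAV7-2 they did not (0.144).

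Joins that are out of frame or hold a stop codon were read from the same cells and make no chain. They made up 1663 to 2855 TRA and 1276 to 2072 TRB reads per library. Only 2.04% of 98 TRA segments were called in them (TRAV14D-2 at 1.22 and TRAV1 at -0.59), and 11.8% of 34 TRB segments (TRBV2 at 1.09, TRBV4 at 0.52, TRBV31 at 0.24 and TRBV14 at -0.65). With DESeq2, 0 TRA and 1 TRB segments were called. Without mouse 1, 2 or 3 the TRA count was 0 each time, and the TRB count was 3, 0 and 1, and smaller differences were not detectable at this depth. TRBV31 was abundant in nonproductive joins of both lineages, at 18.3% ± 1.38 in CD4SP and 15.5% ± 2.38 in CD8SP. It stayed near that level in productive CD4SP reads and was much lower in productive CD8SP reads.

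Whether the lineage difference was the same in productive and nonproductive joins was tested directly, with the library as a block. For TRBV31 the productive difference was larger by 1.71 (SE 0.086, edgeR adjusted p = 1.16e-23). It was larger for TRBV5 by 0.58, and more negative for TRBV17 by 1.57, TRBV14 by 1.12 and TRBV16 by 1.36. Of 34 TRB segments 41.2% were called in this test, 6 upward and 8 downward, and 0 against the direction of a productive call. Without mouse 1 the count was 9 and without mouse 2 it was 9. TRBV2 was not called (0.60, adjusted p = 0.205), and its difference was 1.09 in nonproductive joins. Of 98 TRA segments 27.6% were called, 14 upward and 13 downward, also with 0 against a productive call. In both chains the same productive reads enter the productive call and this test. Their agreement in direction is therefore no separate result. TRAV16N was at 1.63% and 1.40% of nonproductive reads and its productive difference was more negative by 1.85 (edgeR adjusted p = 4.31e-06). For TRAV7-2 the productive difference was larger by 1.30.

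**Figure D4:**
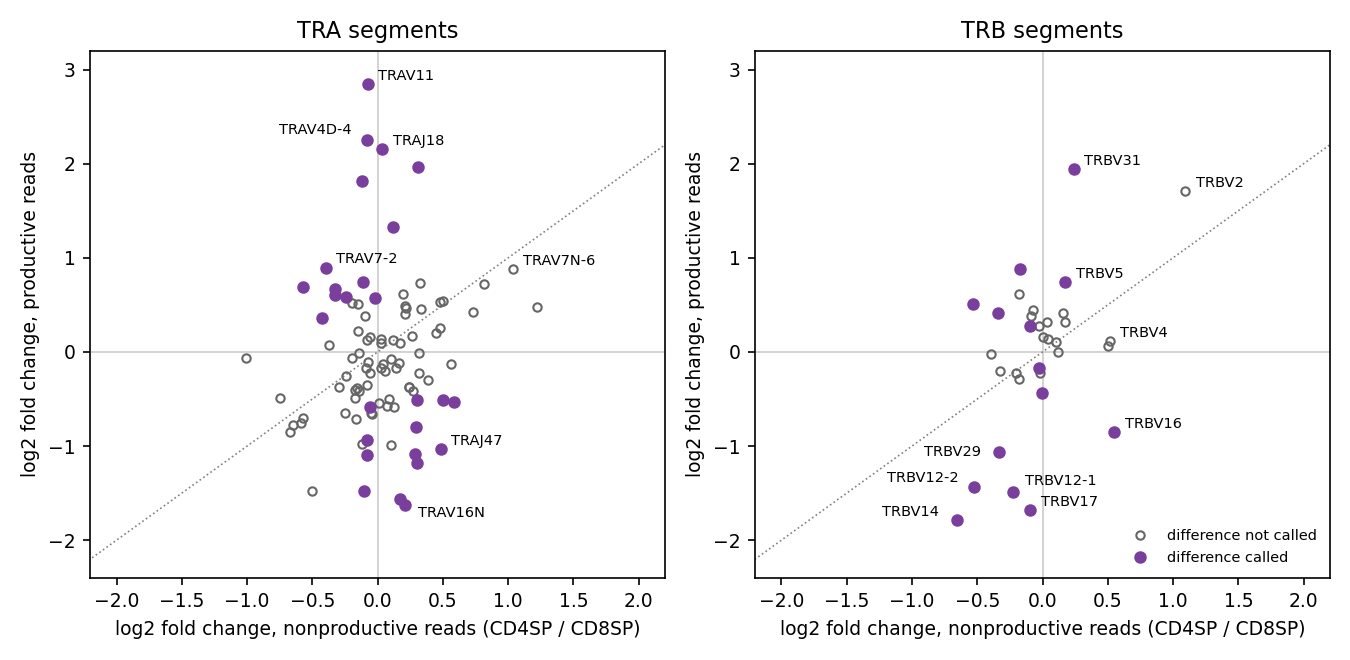
Log2 fold change of CD4SP over CD8SP in productive reads (vertical) against that in nonproductive reads (horizontal) for 98 TRA (left) and 34 TRB segments (right), with the dotted line at equal values. Filled points are segments whose 2 values were called different by edgeR. TRBV31 lies at 1.94 in productive and 0.24 in nonproductive reads, and TRBV2 at 1.71 and 1.09.

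Public clonotypes, amino acid chains read in at least 3 of the 6 libraries, were called in both chains. A chain that is frequent in 1 lineage can pass the count filter through that lineage alone, so the counts are a description. Of 97 TRA clonotypes tested 55.7% were called, 27 in each direction. Without the invariant chain 45 of 98 were called, 23 higher and 22 lower. Of 46 TRB clonotypes 41.3% were called, 15 higher and 4 lower (14 and 9 with TMM factors). Of the 27 higher TRA clonotypes 18 used TRAV7-2 and 3 TRAV11, segments used by 30 and 3 of the 97 tested. Of the 27 lower ones 12 used TRAV16N, which 17 of the 97 used. Of the 15 higher TRB clonotypes 11 used TRBV31, which 17 of the 46 tested used. Most TRA ones need no added base, with 83 of the 97 joined without a base between V and J, 17 of the 27 higher and 24 of the 27 lower. The CDR3 sequences of some are shown because the shared joins can be read in them, with capitals for bases between V and J.
TRAV11 TRAJ18 invariant: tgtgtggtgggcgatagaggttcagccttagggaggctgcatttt
TRAV7-2 TRAJ15: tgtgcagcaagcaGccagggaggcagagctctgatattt
TRAV7-2 TRAJ37: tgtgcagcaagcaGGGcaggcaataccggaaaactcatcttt
TRAV14-2 TRAJ27: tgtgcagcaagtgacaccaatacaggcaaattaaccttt
TRAV16N TRAJ33: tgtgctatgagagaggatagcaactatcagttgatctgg
TRAV3D-3 TRAJ30: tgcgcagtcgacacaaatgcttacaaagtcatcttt
TRBV5 TRBJ2-4: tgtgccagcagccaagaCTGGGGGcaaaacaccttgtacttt
TRBV31 TRBJ2-7: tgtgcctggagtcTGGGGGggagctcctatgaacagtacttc
TRBV31 TRBJ2-5: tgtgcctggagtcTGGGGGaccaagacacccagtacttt
TRBV5 TRBJ2-7: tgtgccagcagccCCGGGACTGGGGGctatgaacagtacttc
The invariant chain gave 1213, 1446 and 1192 reads in CD4SP and 12, 15 and 13 in CD8SP in its main amino acid form (6.96, SE 0.229, edgeR adjusted p = 2.03e-10). The TRAV7-2 and TRAJ15 chain gave 17, 19 and 23 reads in CD4SP and 0 in CD8SP. That is 25.7-fold more when the CD8SP group is set at 3 counts over its 3 libraries. On the same floor the TRAV7-2 and TRAJ37 chain was 20.03-fold and the TRAV14-2 and TRAJ27 chain 17.9-fold higher. In the other direction, the TRAV16N and TRAJ33 chain gave 0 reads in CD4SP and 16, 37 and 21 in CD8SP, 18.9-fold more on that floor. These folds take the higher group as counted, for chains picked by size of change, so they are not lower bounds. The TRAV3D-3 and TRAJ30 chain gave 0, 2 and 0 reads against 27, 46 and 45, or 45.2-fold more with an exact 95% counting interval of 12.2 to 377.

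Of the beta chains shown, the first 3 were found in CD4SP only. They gave 27, 19 and 11 reads for TRBV5 and TRBJ2-4, 19, 28 and 9 for TRBV31 and TRBJ2-7, and 19, 13 and 9 for TRBV31 and TRBJ2-5. With the CD8SP group set at 3 counts these are 26.9, 26.4 and 19.3-fold more, again not lower bounds. The last one, TRBV5 and TRBJ2-7, was lower in CD4SP, at 4, 6 and 4 reads against 20, 34 and 46 (-2.27, edgeR adjusted p = 0.0019). It holds a run of G bases between V and J, as the 3 CD4SP chains do. Its call ended with DESeq2 and without mouse 1 or mouse 3. With no filter on low counts edgeR called 8 TRA and 0 TRB clonotypes, and with the filter DESeq2 called 31 TRB ones. Without mouse 1, 2 and 3 the edgeR counts were 36, 24 and 29 in TRA and 3, 11 and 5 in TRB, and without the mouse block 32 in TRB.

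Clonotypes shared by both lineages of a mouse were compared with those shared between mice, at 74021 TRB reads and 18551 TRA reads per library without the invariant chain. Nucleotide TRB clonotypes shared by CD4SP and CD8SP numbered 1124 to 1243 within a mouse (3 pairs, median 1157) and 585 to 694 between mice (6 pairs, median 639). The 3 pairs from the same mouse lay above all 6 pairs of different mice. CD4SP libraries of different mice shared 1116 to 1180 and CD8SP libraries of different mice 818 to 836. For TRB clonotypes with 10 or more bases between V and J, sharing within a mouse was 310 to 332 clonotypes, or 1.62% to 1.82% of the CD4SP ones, against 91.5 to 110 or 0.503% to 0.603% between mice. With 0 to 4 such bases it was 300 to 350 against 223 to 283. TRA clonotypes showed no surplus, with 955 to 1076 shared within a mouse and 876 to 1097 between mice, and 23.6 to 32.6 against 21.6 to 32.1 for joins with 4 or more bases. Pairs of libraries have libraries in common, so no test was made.

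**Figure D5:**
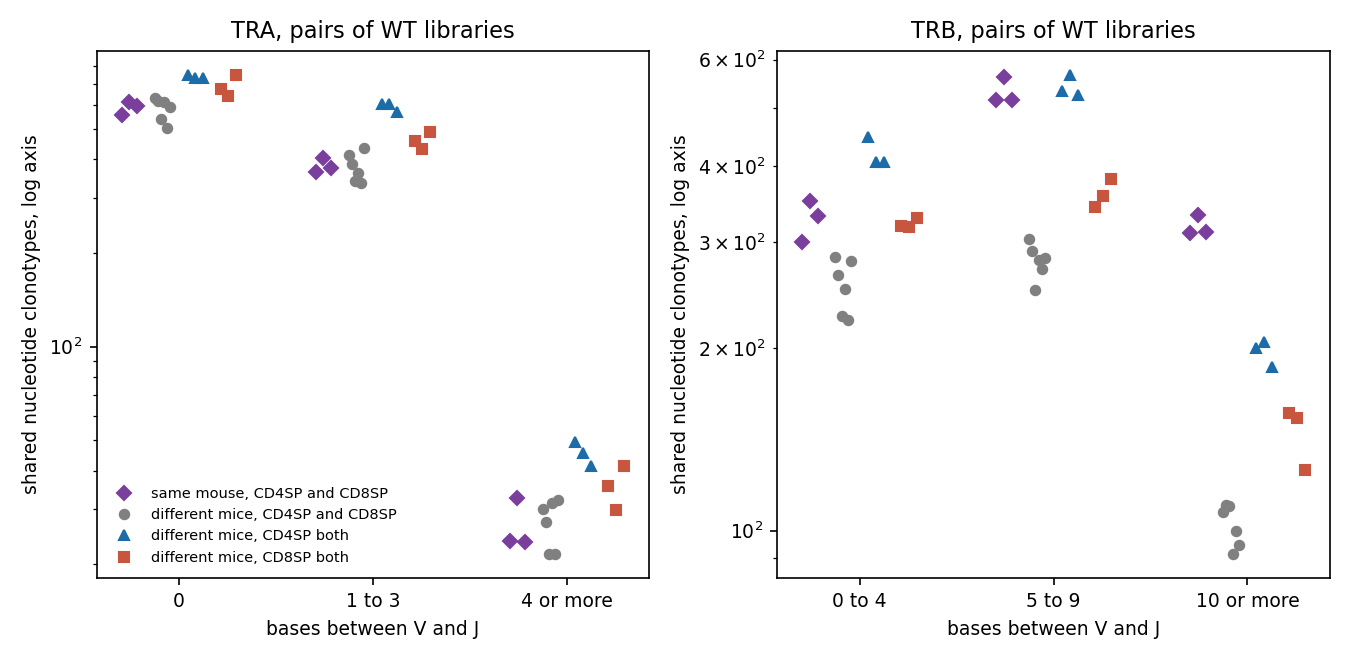
Nucleotide clonotypes shared by pairs of WT libraries at equal depth (log axis), split by the number of bases between V and J, for TRA (left) and TRB (right), 1 point per pair. For TRB with 10 or more bases, pairs from the same mouse lie at 310 to 332 and CD4SP with CD8SP of different mice at 91.5 to 110, while for TRA the 2 kinds overlap.

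At equal depth CD4SP libraries held more TRB clonotypes, 42762, 40850 and 41277 against 33880, 37543 and 37461, and more cells were sorted for them, 1000000 against 330000, whose part in this was not tested. The inverse Simpson index of TRB, higher where reads are spread more evenly, was 29976 ± 707 against 25161 ± 1441 (SD, n = 3). For TRA it was 948 ± 178 against 5421 ± 603 with the invariant chain and 6233 ± 381 against 5305 ± 557 without it, where the groups overlapped. The share of nonproductive TRB reads was 2.19%, 2.33% and 2.06% in CD4SP and 1.36%, 1.38% and 1.39% in CD8SP, while that of TRA overlapped. TRB joins of CD4SP had fewer bases trimmed from V, 2.13 ± 0.00705 against 2.44 ± 0.0395, and fewer bases between V and J, 8.87 ± 0.0345 against 8.997 ± 0.00770. Within segments, the bases between V and J were fewer in 3 of 3 mice in 14 of 18 TRBV segments and more in 3. The trimming from V had no common direction, lower in 7 and higher in 6 of 18. Of 37 measures per library, 21 did not overlap between the groups, 10 higher and 11 lower in CD4SP. By exact two-sided permutation the smallest adjusted p over the 37 was 0.176 for labels and 0.385 for sign flips within mice, since 3 mice cannot give an unadjusted p under 0.1 and 0.25.

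The same comparison in mice without Chrna9 gave the same pattern, from separate libraries. Of the 82 TRA segments called in WT, 79 were called in the same direction in the knockout and 0 in the other, where 72% of 125 TRA segments were called in the knockout. All 30 called TRB segments were called in the same direction there, where 85.7% of 35 were called. TRBV31 was at 1.96 in the knockout and 1.94 in WT, TRBV14 at -1.81 and -1.78, and TRAV16N at -1.64 and -1.63. The test of the difference between genotypes, with edgeR on all 12 libraries, called 0 of 125 TRA and 0 of 35 TRB segments, where 4 TRA and 1 TRB had an unadjusted p under 0.05. DESeq2 called 0 as well, where 1 TRA and 1 TRB did. Without mouse 2, edgeR called 2 TRB segments, TRBJ1-4 (-0.13) and TRBV12-1 (0.12). For TRBV31 the fitted difference of WT minus knockout was -0.02 (SE 0.027). All 24 measures that went 1 way in 3 of 3 WT mice went the same way in all 3 knockout mice. Most of the 37 measures went 1 way in all 3 knockout mice. The exceptions were TRA joins with no added base, the MAIT and TRD shares, mean TRB CDR3 length and TRB hydropathy (affinity for water) of residues 6 and 7.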

How the data were processed

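Per the labels, RNA of sorted cells was made into alpha and beta TCR libraries with a SMARTer mouse kit and read on a MiSeq, and MiXCR, whose version the sources used here do not give, assembled clonotypes. The deposited tables give a read count and a read fraction per clonotype; the deposited fraction equalled the count over the table's total in every table, and shares of productive reads were computed from counts. The build mm10 is named in the submitters' processing notes, and all 179 segments found a position in RefSeq's GRCm38.p6 annotation, which is mm10.

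Productive clonotypes (a covered CDR3, no frame shift or stop) were summed by best-scoring V and J segment, by V and J pair, CDR3 length, residue at each of the 5 middle positions, and public chain (the same V, CDR3 residues and J in at least 3 libraries). Each table was fitted with edgeR 4.0.16's quasi-likelihood test (R 4.3.3) with library sizes equal to productive reads, a filterByExpr minimum of 10 counts and a mouse block, with Benjamini-Hochberg adjustment over the whole table. The productive against nonproductive test used a library block. The alternatives were TMM factors, DESeq2 1.42.0, no filter, no replicate block, all 12 libraries, each clonotype once, no 1-read clonotypes, no tied segments, no invariant chain and each mouse left out. Measures were compared by exact permutation in Python 3.11.15 (scipy 1.17.1), with thinning to equal reads in 20 draws.

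Pairing came from the replicate numbers and the design text, which describes pairs of mice and paired tests; that text does not say whether its pairs are WT with knockout mice, so that same-numbered libraries share a mouse rests on the numbers. Deviations of same-numbered libraries correlated at 0.608, 0.473 and 0.316 over TRB segments and at -0.198, 0.0109 and -0.294 over TRA segments. No 2 replicate libraries agreed within sampling noise. Within segments the values of 300 reads and more were used. By the rule for names, the text gives called segments with a mean share of at least 0.5%, up to 10 per direction and chain, all TRBV, TRBJ and TRAV families, the most used TRA segments, and per direction up to 5 lengths, 6 residues, 5 pairs (mean share at least 0.1%) and 5 public clonotypes by size of change. Copies of a named family, exceptions and features of counts of 5 or fewer were named after their values were seen. The edgeR p-values rest on the spread between these 3 mice and on a dispersion pooled over the features of each table. A very small p-value therefore does not come from the 3 mice of that feature alone. The members, lists and tests were chosen with earlier results of these data known. The fits were tested on counts simulated with known changes. Of planted 2-fold changes, 7 of 7 TRA and 2 of 2 TRB segments, 17 of 23 TRA pairs and 14 of 15 TRB pairs were recovered. Of those in public clonotypes 0 of 4 TRA and 0 of 1 TRB were recovered. For 1.25-fold changes in nonproductive segments the numbers were 0 of 7 TRA and 0 of 3 TRB. Uncovered CDR3 reads (2.04% to 3.07% of TRA and 0.544% to 0.837% of TRB reads) were left out.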

Additional observations from a re-analysis of the deposited data

How the results depend on the processing

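The alternatives gave 1758 values of 163 named segments, pairs, lengths, residues and clonotypes. Of these, 1582 kept their side of the threshold, 148 were weaker, 12 stronger and 16 reversed. A reversal was counted only where the main or the alternative fit was called. Sign changes of values called in neither fit are among the 1582. Those reversed were TRAV11 with each clonotype once (-0.012) and without the invariant chain (-0.17, and -0.18 for its family), leucine 2 residues after the middle in the same settings (-0.033 and -0.21), the TRA length of 12 residues with TMM factors (0.12), DESeq2 (0.072), each clonotype once (0.0065) and no invariant chain (0.030), TRBV15 with TMM factors (-0.031) and DESeq2 (-0.050), TRBJ1-5 (-0.15) and TRBJ2-2 (-0.013) with DESeq2, the TRAV6 family with DESeq2 (0.14) and without tied segments (0.22), and the TRAV9 family without tied segments (0.068); apart from the loss of the invariant chain's own reads, the cause was not tested. Of 173 counts of calls under alternatives, 140 stayed within 1.5 times the main count. DESeq2 called 4 TRB lengths (8 in edgeR), 112 TRA pairs (183), 31 TRB public clonotypes (19), 0 nonproductive TRA (2) and 1 nonproductive TRB segments (4). TMM factors gave 25 TRA public clonotypes (54) and 0 nonproductive TRA segments. No filter on low counts gave 8 TRA and 0 TRB public clonotypes, and all 12 libraries gave 88 and 36. Without clonotypes of 1 read, 0 nonproductive TRA, 0 nonproductive TRB, 13 TRA (27) and 8 TRB (14) productive against nonproductive differences were called. Leaving out each mouse gave 72 to 79 TRA and 27 to 30 TRB segments, 10 to 15 families, 4 to 7 TRB lengths, 35 to 47 TRB residues, 24 to 36 TRA and 3 to 11 TRB public clonotypes, 0 to 0 nonproductive TRA and 0 to 3 nonproductive TRB segments, 9 to 11 productive against nonproductive TRB differences and 0 to 2 TRB differences between genotypes. With no replicate block 32 TRB public clonotypes were called, and no other count of calls moved by over 1.5 times. By amino acid definition the ratio of TRB sharing within to between mice was 1.23 in place of 1.81. The public clonotype fits with each clonotype once could not be fitted. Of 171 values of the 37 measures, 134 moved by less than the spread between mice and 37 moved by more. A reversal was counted only for measures whose groups did not overlap, and 0 were found. Sign changes of the other measures were not counted. With each clonotype once 18 moved and 12 did not, and without clonotypes of 1 read 19 moved and 11 did not. Leaving out 1 of 3 mice cannot move a mean difference by more than that spread. The 37 values for each mouse left out are therefore no check. Depth limits what can be seen in rare segments, pairs, public chains and nonproductive joins.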
